A study of Mus musculus with 8 samples.

Results

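Of 67822 regions of open chromatin listed for mouse forebrain microglia, 3601 lay in long terminal repeat (LTR) elements of endogenous retroviruses. A region was counted when its detailed annotation named a repeat of the LTR class, when it was not annotated to a promoter, and when it lay on chromosomes 1 to 19. The rule used only the annotation and position of a peak, not its signal. LTR peaks on the other chromosomes (70) stayed out. No LTR peak on chromosomes 1 to 19 was annotated to a promoter, although 38 overlapped a promoter window of RefSeq, as described below. Repeat family and repeat name were read from the same annotation.

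The study used ATAC-seq, in which a transposase cuts accessible DNA, on CD11b+ cells isolated by magnetic sorting from forebrain. Nlrp3 knockout and wild-type mice were compared, with 4 libraries per genotype. The knockout allele is the Cias1 knockout, named Nlrp3-/- by the submitters, and the wild type is C57BL/6N; Nlrp3 encodes an inflammasome sensor. No treatment, age or other allele is given in the labels, and the sort on CD11b keeps other CD11b+ myeloid cells beside microglia. Nothing in the labels says whether the libraries came from separate animals, so every p-value here rests on the spread among these libraries alone, which may be technical.

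Endogenous retroviruses are remnants of retroviral insertions. A complete copy has an internal coding segment between 2 LTRs, and the LTR carries the promoter and enhancer sequence of the virus; recombination often leaves a solitary LTR. In mouse, the families are ERV1 (gammaretrovirus-like), ERVK (betaretrovirus-like, which includes the mobile IAP elements), ERVL and ERVL-MaLR, an old non-autonomous group with the MT and ORR1 elements. Most copies are silenced by KRAB zinc finger proteins, TRIM28, histone methylation and DNA methylation, while some LTRs act as enhancers in immune cells.

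Tags in all listed peaks ranged from 709738 to 3252424 per library, and their share of all tags from 4.96% to 26.2%, with knockout replicates 1 and 2 lowest (6.68% and 4.96%) and knockout replicates 3 and 4 highest (20.9% and 26.2%). The median LTR peak held 12 to 18 tags in a wild-type library, 7 and 6 tags in knockout replicates 1 and 2, and 19 and 25 in knockout replicates 3 and 4. Counts are given as CPM, the tags per 1000000 tags in peaks unless all tags are named. The summed tags of the 8 peaks assigned to Nlrp3, none of them an LTR peak, were 157, 188, 154 and 162 CPM in wild type and 62.7, 69.4, 70.7 and 82.5 CPM in knockout. All 10 microglial marker genes had a peak, and the 132 peaks assigned to them summed to 2281 to 2440 CPM in wild type and 2327 to 2685 in knockout. For markers of other cells the sums were 371 to 400 CPM in wild type and 385 to 449 in knockout for oligodendrocytes (23 peaks), 292 to 325 and 285 to 333 for endothelial cells (25 peaks), and 191 to 316 and 157 to 369 for border macrophages and monocytes (13 peaks). They were 48.4 to 70.3 and 46.6 to 67.9 CPM for astrocytes (8 peaks), 68.2 to 78.0 and 56.7 to 97.4 for neurons (9 peaks), and 28.3 to 35.9 and 32.9 to 45.8 for granulocytes and lymphocytes (4 peaks). A sum grows with the number of peaks, and per peak wild type had 17.3 to 18.5 CPM at microglial and 16.1 to 17.4 CPM at oligodendrocyte markers. The wide knockout range of the border macrophage list lay at Ly6c2, with 189, 261, 51.8 and 54.0 CPM. Of the 4 oligodendrocyte markers 2 had a peak, as did 4 of the 6 neuronal and 2 of the 6 granulocyte and lymphocyte markers. Those 2 were S100a9 (1 peak, mean 5.16 CPM in wild type) and Ms4a1 (3 peaks, 27.1 CPM). S100a8, Ly6g and Cd3e were among those with none. The part of other cells in the results was not tested.

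ERVL-MaLR elements made up 2256 of the 3601 LTR peaks (62.6%), ERVK 636 (17.7%), ERVL 447 (12.4%) and ERV1 234 (6.50%). The remaining 28 peaks were 14 Gypsy, 6 ERVL?, 4 Gypsy?, 2 ERVK? and 2 with no family below LTR, where the question mark is the annotation's own. LTR peaks were 45.6% of the 7900 repeat peaks outside promoters, ahead of 1868 peaks in SINEs and 1636 in LINEs, the short and long retrotransposons without LTRs. They were 6.71% of the 53649 peaks outside promoters on chromosomes 1 to 19. By chromosome this share ran from 5.23% on chromosome 19 to 8.38% on chromosome 1, where 308 of 3675 such peaks lay in LTR elements.

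LTR peaks carried 370 repeat names, and 106 of these names had 1 peak. The 35 names with at least 20 peaks held 2323 peaks. MTD led with 361 peaks and was followed by ORR1E (332), ORR1D2 (167), ORR1F (151), MTC (133), MTEa (103), ORR1B1 (82), MTE2b (78) and MTEb (70), all of them ERVL-MaLR, and by RMER19B of ERVK (65). Internal segments gave 260 peaks (7.22%), so the listed peaks lay mostly in the LTRs themselves. Name groups that hold the young elements still mobile or expressed in mouse cells had few peaks. There were 15 in IAP, 8 in MERVL and MT2_Mm, 1 in ETn and MusD, 1 in MTA, 2 in MMERVK10C and RLTR10, and 20 in VL30 and murine leukaemia virus-like elements. Groups were made by how a name starts, so they take in related names such as MERVL_2A-int and MuRRS4-int, whose age was not checked. MMERGLN-int was in none of these groups. Tags were from 51-cycle single-end reads, and how reads with several matches in the genome were handled is not given in the sources used here, and the part of this in the low numbers was not tested.

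Most LTR peaks were far from a gene start and narrow, much like intergenic peaks outside repeats and LINE peaks. The median distance to the nearest annotated start was 21.3 kb (quartiles 9.15 and 49.98 kb), 27.6% lay within 10 kb and 10.8% beyond 100 kb. The median distance was 21.7 kb for intergenic peaks outside repeats and 22.4 kb for LINE peaks. It was shorter for SINE peaks (14.2 kb) and intron peaks outside repeats (15.7 kb). The median width of LTR peaks was 263 bases (quartiles 237 and 293), against 268 for all listed peaks. Intergenic positions held 2061 LTR peaks and introns 1540. Introns held 47.5% of ERVL-MaLR peaks, 36.0% of ERVK, 35.3% of ERVL and 31.2% of ERV1 peaks; these shares describe the list and were not tested. Both genotypes' reproducible peak lists held 2611 LTR peaks (72.5%, against 75.5% of all listed peaks). The wild-type list alone held 617 (17.1%, against 16.3%) and the knockout list alone 373 (10.4%, against 8.18%).

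Sequence was at hand where an LTR peak met a RefSeq promoter window (250 bases before to 50 after a gene start, assembly GRCm38.p6, which has the coordinates of mm10). Among LTR peaks, 38 overlapped such a window although the deposited annotation placed them outside promoters, and 28 had their centre in one. The 5 stretches below are the part of a peak inside its window, on the strand of the gene and 5′ to 3′. They are the strongest peaks in wild type with the centre in a window and at least 140 bases inside it, 2 of ERVL-MaLR and 1 of each other family, and they show what an open LTR at an annotated start looks like. This choice was made after the values were seen. Capitals mark matches, on either strand, to GAGGAAGT (PU.1), TGANTCA (AP-1), AAANNGAAA (IRF), TTGCNNAA (C/EBP), TGTGGTT (RUNX), AGGGGGC (CTCF core), TATTTATAG (MEF2), GGGANTTCC (NF-kB) and CACGTG (E-box); matches may overlap each other.
MLT1F (ERVL-MaLR), chr3:79852719-79853010, minus strand, window of Tmem144: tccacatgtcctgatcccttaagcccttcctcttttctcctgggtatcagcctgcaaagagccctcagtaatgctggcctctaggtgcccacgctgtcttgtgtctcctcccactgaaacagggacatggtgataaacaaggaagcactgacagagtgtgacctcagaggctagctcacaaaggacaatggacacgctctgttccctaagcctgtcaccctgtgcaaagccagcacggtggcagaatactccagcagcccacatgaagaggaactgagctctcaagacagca
ORR1E (ERVL-MaLR), chr6:146170828-146170975, plus strand, window of Gm35768: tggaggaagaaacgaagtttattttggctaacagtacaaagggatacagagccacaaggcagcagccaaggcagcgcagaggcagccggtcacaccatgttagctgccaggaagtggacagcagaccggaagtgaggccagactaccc
RLTR12BD_Mm (ERVK), chr13:44504463-44504677, plus strand, window of Gm40930: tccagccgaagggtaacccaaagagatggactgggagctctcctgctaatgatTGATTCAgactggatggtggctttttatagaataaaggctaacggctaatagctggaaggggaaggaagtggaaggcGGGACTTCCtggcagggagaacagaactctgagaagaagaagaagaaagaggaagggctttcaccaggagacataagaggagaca
RMER10A (ERVL), chr7:75822422-75822587, plus strand, window of Gm51489: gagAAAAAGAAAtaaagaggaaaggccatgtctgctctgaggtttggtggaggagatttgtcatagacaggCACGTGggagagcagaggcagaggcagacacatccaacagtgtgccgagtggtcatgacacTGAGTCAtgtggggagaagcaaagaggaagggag
LTRIS2 (ERV1), chr10:51526214-51526434, minus strand, window of Gm40645: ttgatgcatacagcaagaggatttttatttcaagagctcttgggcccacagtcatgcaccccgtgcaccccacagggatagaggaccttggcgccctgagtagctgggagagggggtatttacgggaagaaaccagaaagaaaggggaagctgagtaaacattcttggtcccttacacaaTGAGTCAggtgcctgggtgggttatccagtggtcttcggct

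The MLT1F stretch is in the window of Tmem144, a transmembrane protein gene whose start in the deposited table is 10.2 kb away, and its peak (3:79852692-79853010) reached 148 ± 27.3 CPM per kb in wild type and 158 ± 17.2 in knockout (SD, n = 4 each). The other 4 stretches are at starts of uncharacterised Gm genes. The ORR1E peak (6:146170828-146171073) had 137 ± 24.4 and 133 ± 12.8 CPM per kb, and the RMER10A peak (7:75822422-75822659) 100 ± 2.66 and 96.1 ± 25.1 CPM per kb in wild type and knockout. The RLTR12BD_Mm peak (13:44504463-44504768) had 71.3 ± 18.7 and 57.2 ± 19.1, and the LTRIS2 peak (10:51526196-51526434), 35.4 kb from the start of the leukocyte receptor gene Lilrb4a, 54.6 ± 7.92 and 54.5 ± 16.9. None of the 5 passed the test described below (edgeR adjusted p = 1.00 each), and their log2 fold changes lay between -0.20 and 0.13.

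Motifs were also counted over the full 300 bases of the 28 promoter windows that held the centre of an LTR peak. A match can therefore lie outside the peak and its LTR element. GAGGAAGT was in 7 of the 28, against 3.20% of all 32817 windows and 3.99% of the 9672 that held the centre of any listed peak. TGANTCA was in 6 (21.4%, against 7.81% and 4.58%) and TGTGGTT in 5 (17.9%, against 5.27% and 3.48%). CACGTG was in 4 (14.3%, against 7.15% and 11.0%), AAANNGAAA in 3 (10.7%, against 10.5% and 6.81%), and TTGCNNAA and GGGANTTCC in 2 each (7.14%, against 10.8% and 7.83%, and 1.68% and 2.68%). AGGGGGC, found in 10.6% and 17.3%, and TATTTATAG, found in 0.45% and 0.32%, were in none of the 28. Median GC content was 49.5% in the 28 windows and 52.7% in all windows, with 4 and 7 CpG dinucleotides. A match is a string of letters and no record of binding, and 28 windows are few.

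LTR peaks had levels like those of other distal peaks and lower than promoters. Level is given as CPM per kb of peak, as the median over the peaks of a class in each library. LTR peaks stood at 31.4, 31.4, 29.5 and 30.5 in wild type (mean 30.7 ± 0.90 SD, n = 4) and 33.1, 34.1, 31.2 and 30.0 in knockout (32.1 ± 1.83, n = 4). The wild-type means were 30.3 ± 1.00 for ERVL-MaLR, 31.5 ± 0.64 for ERVK, 31.5 ± 1.33 for ERVL and 30.0 ± 1.12 for ERV1. In each wild-type library the ERVK and ERVL medians lay above that of ERVL-MaLR, but in knockout replicates 1 and 2 that of ERVK lay below it. The differences between families were not tested. LINE peaks were at 32.0 ± 0.94, SINE peaks at 28.9 ± 0.29, intergenic peaks outside repeats at 33.6 ± 0.77 and promoters at 57.2 ± 5.47. Only 11 of the 1000 strongest peaks by wild-type level were LTR peaks (1.10%, against 5.31% of all listed peaks).

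**Figure D1:**
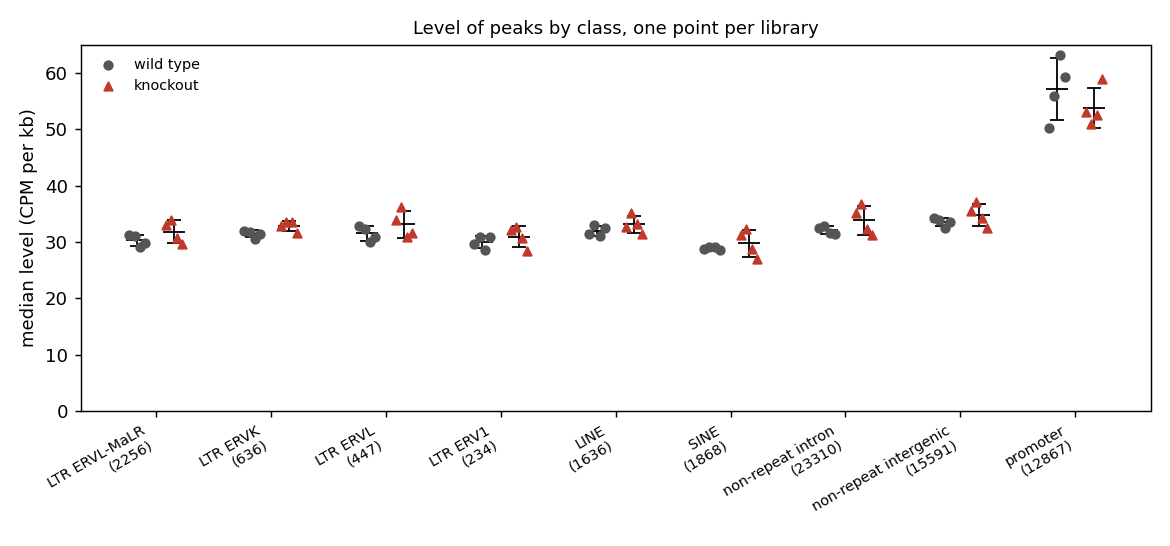
Median level of peaks (y axis, CPM per kb) by class (x axis, number of listed peaks in brackets), with 1 point per library and bars for the mean and SD of 4 libraries; circles are wild type and triangles knockout. The 4 LTR families stand between 28.5 and 36.2 CPM per kb in every library, beside LINE and SINE peaks, and promoters stand at 50.3 or above.

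Among names with at least 20 peaks, MLT1K had the highest wild-type level (46.6 ± 3.71 CPM per kb, 22 peaks), followed by RMER15-int (44.4 ± 8.56, 23 peaks), LTR33 (42.9 ± 4.15, 20 peaks) and MLTR11B (40.7 ± 5.68, 31 peaks). Neighbours in this order differed by less than their SD over libraries. The lowest were MLT1C (26.7 ± 0.34, 30 peaks), MT2A (25.8 ± 0.99, 25 peaks) and MLT1A0 (25.5 ± 1.83, 35 peaks). The share of peaks found in both genotypes' lists was 95% for LTR33, 93.5% for MLTR11B and 56.0% for MT2A.

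The strongest single LTR peak, with 1 peak per repeat name, was an ORR1D2 in an intron, 69.7 kb from the start of Dnajc3, an endoplasmic reticulum chaperone (14:119007487-119007717). Its level was 387, 383, 360 and 399 CPM per kb in wild type and 376, 409, 414 and 371 in knockout, and the genotypes overlapped. An MLT1F1 at the microtubule gene Map4 (9:109914308-109914531) had 345 ± 54.4 and 367 ± 48.8, and an MLT1G1 in an intron, 29.6 kb from the assigned start of the synaptotagmin gene Syt2 (1:134679535-134679792), had 320 ± 40.3 and 331 ± 40.9 CPM per kb in wild type and knockout. Next came an MTD 217 kb from Lrig3 (280 ± 34.9 and 307 ± 46.5), an MLT1K at E130018N17Rik (255 ± 45.3 and 288 ± 52.0), an RMER19B at the lymphocyte receptor gene Ly9 (253 ± 11.0 and 290 ± 14.6) and an ORR1F 4.85 kb from the presenilin gene Psen2 (251 ± 21.1 and 229 ± 14.3). The genotypes overlapped at Lrig3, E130018N17Rik and Psen2. The Ly9 peak alone of the 8 had all knockout libraries (274 to 303) above all wild-type libraries (239 to 262), and it did not pass (log2 0.21, SE 0.13, edgeR adjusted p = 1.00).

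An RLTR33 peak at Brox (1:183299194-183299504), in an intron, was among these 8 and differed most between libraries. It held 111, 195, 162 and 202 tags in wild type and 116, 109, 103 and 109 in knockout, although knockout replicates 1 and 2 had far fewer tags in peaks. On the CPM scale it therefore stood at 140 and 161 CPM in knockout replicates 1 and 2 and at 45.2 and 35.3 CPM in replicates 3 and 4. Among 1238 LTR peaks with a mean of at least 20 tags, 14 had a mean CPM in knockout replicates 1 and 2 more than 2 times that in replicates 3 and 4, a rule chosen after these values were seen. The ratio was under 0.5 in 29 peaks, and its median was 0.89. The highest ratios included 3 peaks at Sfi1 on chromosome 11, in RLTR33 (11:3189269-3189943, ratio 5.59), MTC (11:3190249-3190666, 5.47) and ORR1D1 (11:3195641-3196404, 4.78). The ORR1D1 peak had 92.5, 196, 120 and 138 CPM in wild type and 280, 400, 83.4 and 58.9 CPM in knockout, but 14.7 to 19.1 CPM of all tags in every library. Per tag in all, the 8 libraries at this peak were closer to each other than per tag in peaks. An internal MMERGLN segment assigned to 1700030C10Rik (12:20230348-20231099), had the highest ratio (7.93) and from 0.44 to 2.61 CPM of all tags. That gene was assigned 5 MMERGLN-int peaks, none of which was called.

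**Figure D2:**
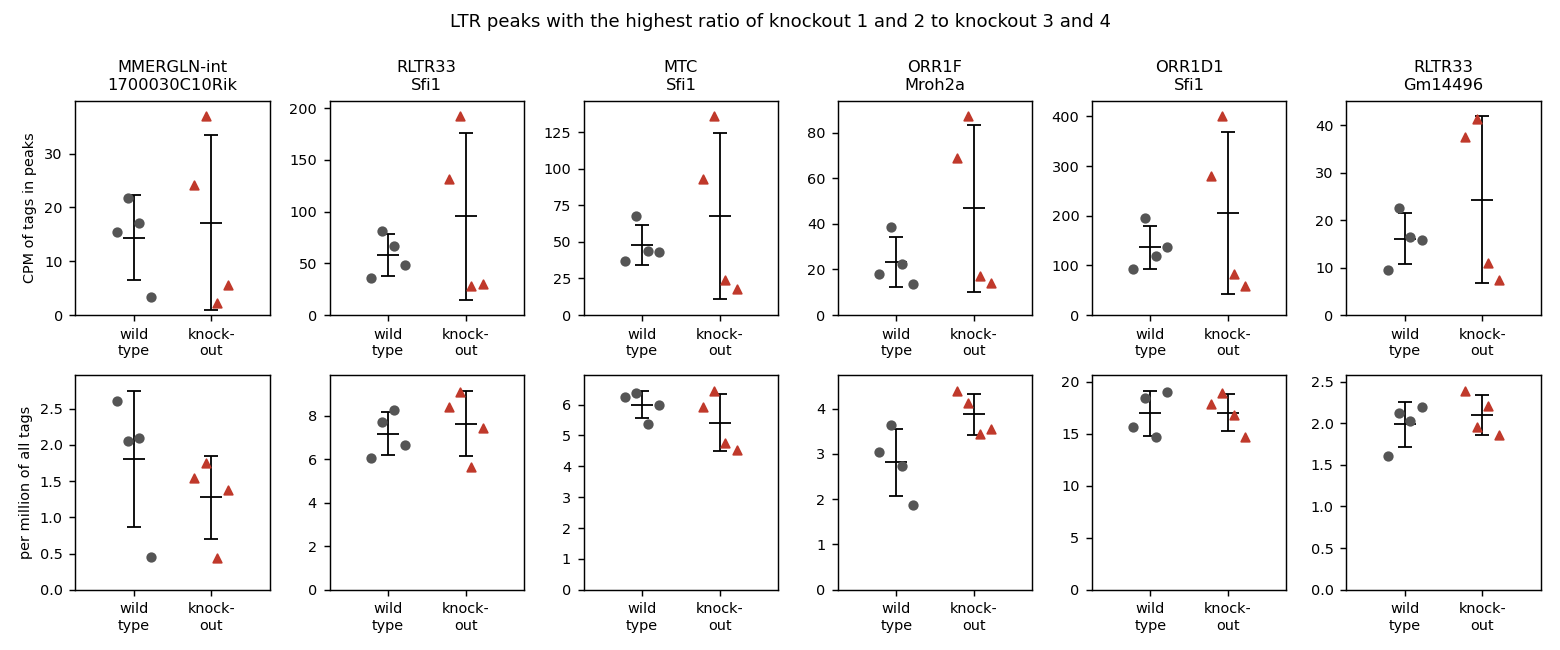
The 6 LTR peaks with the highest ratio of knockout replicates 1 and 2 to knockout replicates 3 and 4, as CPM of tags in peaks (top row) and CPM of all tags (bottom row), with 1 point per library and bars for the mean and SD of 4 libraries. In the top row knockout splits into a high and a low pair, while in the bottom row the gap is smaller (14.7 to 19.1 CPM of all tags for ORR1D1 at Sfi1), with both libraries of the first pair still above both of the other in 5 of the 6 peaks, RLTR33 at Gm14496 being the exception.

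Whether loss of Nlrp3 moved LTR chromatin as a whole was asked with the share of tags in peaks that fell in LTR peaks. That share was 4.34%, 4.09%, 3.85% and 4.03% in wild type (4.08% ± 0.20) and 4.17%, 4.16%, 4.34% and 4.09% in knockout (4.19% ± 0.10), and the genotypes overlapped. The difference of 0.11 percentage points was smaller than the spread of the wild-type libraries (exact two-sided permutation test, p = 0.34, n = 4 each; the smallest p that 70 splits allow is 0.029). It was 0.058 points with all tags as the denominator and 0.0075 with tags outside promoters. Without wild-type replicate 3 it was 0.036 points, and without wild-type replicate 1 it was 0.20 (exact p = 0.057, the smallest that this smaller design allows). By family the difference was 0.080 points for ERVL-MaLR (2.58% ± 0.14 and 2.66% ± 0.065 in wild type and knockout), 0.020 for ERVK (0.70% ± 0.030 and 0.72% ± 0.020), 0.0080 for ERVL (0.51% ± 0.025 and 0.51% ± 0.013) and 0.0036 for ERV1 (0.25% ± 0.0095 and 0.26% ± 0.0084). No family passed (exact permutation tests, p = 0.37, 0.31, 0.60 and 0.57 in that order, each 0.60 after Benjamini-Hochberg adjustment over the 4 families), and the sign for ERVL and ERV1 turned with tags outside promoters as the denominator (-0.0075 and -0.0044 points).

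**Figure D3:**
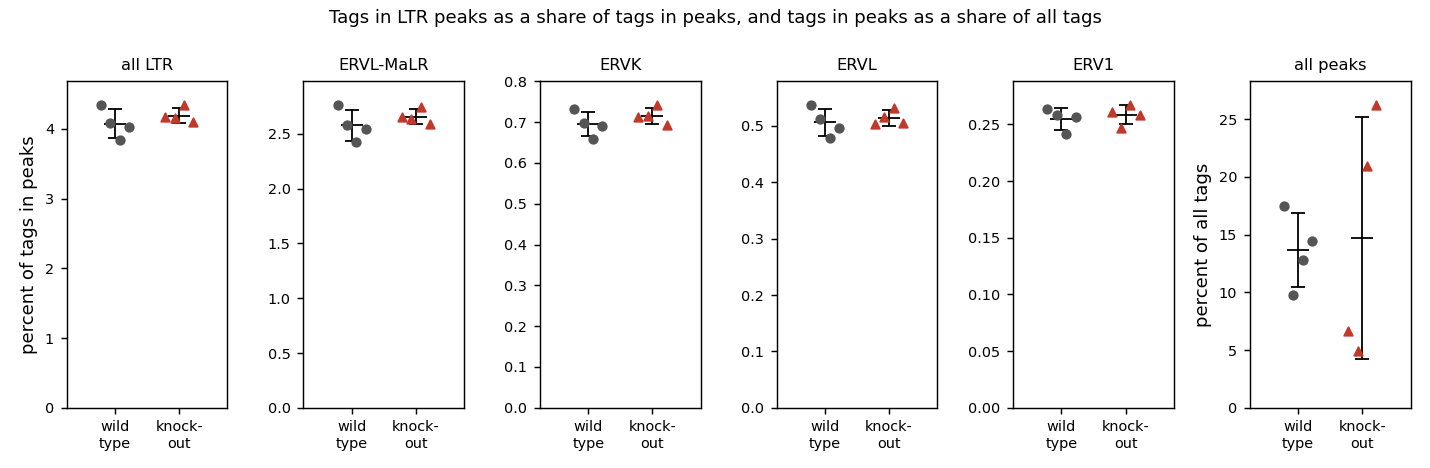
Tags in LTR peaks as a percent of tags in peaks (first 5 panels, y axis, all LTR peaks and each family) and tags in peaks as a percent of all tags (last panel), by genotype, with 1 point per library and bars for the mean and SD of 4 libraries. The LTR share stays between 3.85% and 4.34% in all 8 libraries, while tags in peaks run from 4.96% to 26.2% of all tags.

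Single LTR peaks changed rarely. Of 3601 LTR peaks, 2974 (82.6%) had enough tags to be tested, and 13 passed edgeR's quasi-likelihood test at a Benjamini-Hochberg adjusted p below 0.05 over all 58135 tested peaks (0.44%, against 0.17% of all tested peaks). The count fell to 8 when wild-type replicate 1 was omitted and rose to 26 when knockout replicates 1 and 2 were. In knockout, 2 were higher (0.055% of all tested peaks were called higher) and 11 lower (0.115% of all tested peaks). ERVL-MaLR had 7 called of 1855 tested (1 higher, 6 lower), ERVK 5 of 524 (1 higher, 4 lower), ERVL 1 of 371 (lower) and ERV1 0 of 198. LINE peaks had 2 called of 1318 tested, SINE peaks 4 of 1458, and peaks in other repeats 3 of 666 (0.45%). Outside repeats, intron peaks had 41 called of 19455 tested (0.21%) and intergenic peaks 20 of 13164 (0.15%). Whether these shares differ from that of LTR peaks was not tested. For ERV1, DESeq2 also called 0 peaks, and 3 peaks had an unadjusted edgeR p below 0.05.

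At an unadjusted p below 0.05 there were 166 LTR peaks (5.58%, against 4.83% of all tested peaks), 99 of them higher and 67 lower. At that p, 1516 of all tested peaks were higher and 1292 lower. Outside repeats, 595 intron peaks were higher and 376 lower, and 397 intergenic peaks were higher and 285 lower. Promoters had 119 higher and 361 lower. The 2 genotypes did not overlap in 120 LTR peaks (4.03%, against 3.17% of all tested peaks). The median log2 fold change of tested LTR peaks was 0.042, and that of all tested peaks 0.0037. It was 0.047 for ERVL-MaLR, 0.032 for ERVK, 0.031 for ERVL and 0.039 for ERV1, against 0.040 for LINE peaks, 0.029 for intergenic peaks outside repeats and -0.065 for promoters. The median of LTR peaks moved with single libraries, to 0.0080 without knockout replicate 3 and 0.016 without wild-type replicate 3.

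**Figure D4:**
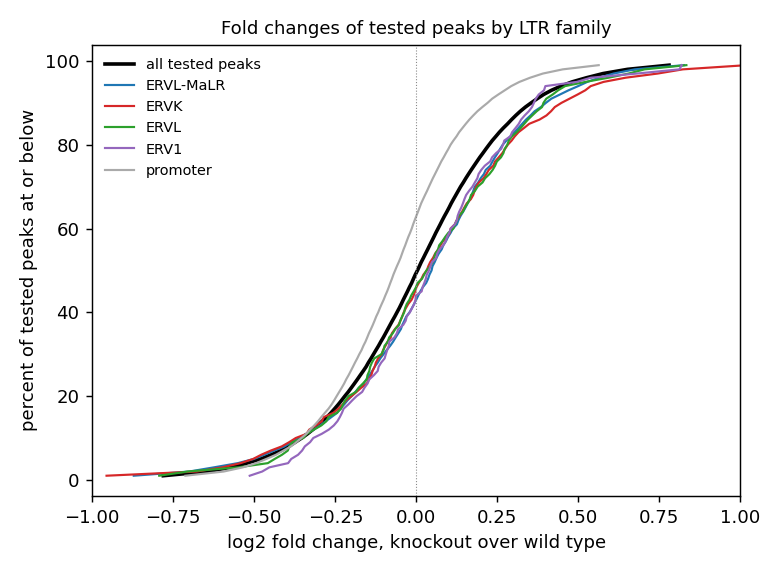
Percent of tested peaks (y axis) at or below a log2 fold change of knockout over wild type (x axis), from the 1st to the 99th percentile, for the 4 LTR families, promoters and all tested peaks. At the median the families lie slightly right of all tested peaks (0.031 to 0.047 against 0.0037) and promoters left (-0.065); at the 1st percentile ERVL-MaLR (-0.87), ERVK (-0.96) and ERVL (-0.79) lie left of all tested peaks (-0.78), and ERV1 (-0.51) and promoters (-0.71) right.

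The 2 peaks that rose were an RMER19C and an MTD. The RMER19C peak (6:54679219-54679472), an ERVK element 2.28 kb from the start of Mturn, a neural progenitor regulator, held 4, 1, 4 and 3 tags in wild type and 9, 12, 60 and 80 in knockout. All knockout libraries (10.9 to 26.4 CPM) stood above all wild-type libraries (0.70 to 2.28 CPM), and the log2 fold change was 3.70 (SE 0.36, edgeR adjusted p = 9.50e-07). The peak was in the knockout list only. The MTD peak (7:74684015-74684303), intergenic and 129 kb from Slco3a1, an organic anion transporter gene, had 16.4, 9.14, 14.8 and 14.4 CPM in wild type and 33.8, 34.0, 34.7 and 27.2 in knockout. It rose by 1.19 on the log2 scale (SE 0.21, edgeR adjusted p = 0.0050), without overlap, and lost the call without knockout replicate 3 (adjusted p = 0.053).

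Of the 11 peaks that fell, 3 lay on chromosome 9 and 2 in a segment of chromosome 6. An intronic ORR1D2 peak 3.68 kb from the start of Trak1, which links mitochondria to kinesin (9:121301051-121301303), held 41, 17, 22 and 22 tags in wild type and 3, 2, 1 and 3 in knockout. It fell by 3.30 on the log2 scale (SE 0.45, edgeR adjusted p = 0.00017). An intronic RMER19B peak of the antisense gene Lyzl4os, 296 kb away (9:121597079-121597418), held 24, 17, 22 and 12 tags against 2, 2, 3 and 0, and fell by 3.21 (SE 0.54, edgeR adjusted p = 0.0035), or by 2.41 without knockout replicate 4, which held no tag (adjusted p = 0.022). Both were in the wild-type list only, and no knockout library reached any wild-type library. An intergenic MLT2C1 peak, the only called ERVL member (9:106257906-106258121), lay 10.1 kb from Alas1, the first enzyme of heme synthesis. It held 22, 17, 22 and 13 tags against 1, 1, 5 and 8 and fell by 2.21 (SE 0.39, edgeR adjusted p = 0.0072), with 17 other changed peaks of any class within 2 Mb, 15 of them lower. Its call was lost without wild-type replicate 3 (adjusted p = 0.053).

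An intronic MTE2b peak 2.43 kb from the start of Ptpro, a receptor tyrosine phosphatase (6:137413023-137413285), held 27, 11, 12 and 30 tags in wild type and 1, 3, 4 and 3 in knockout (log2 -2.67, SE 0.44, edgeR adjusted p = 0.0028). An intronic ORR1E peak 13.1 kb from the start of Rerg, a Ras-like GTPase (6:137156494-137156757), had 13.4, 16.9, 10.8 and 16.8 CPM against 3.62, 8.86, 4.39 and 2.26 (log2 -1.87, SE 0.34, edgeR adjusted p = 0.0078). The genotypes did not overlap at either peak. Each had 9 other changed peaks within 2 Mb, 5 lower and 4 higher, so both directions occurred in that segment. The Rerg peak lost the call without knockout replicate 4 (edgeR adjusted p = 0.085).

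An MTD peak in an intron, assigned to the vitamin D hydroxylase gene Cyp2r1 59.8 kb away (7:114503051-114503271), was nearest to complete loss. It held 19, 8, 16 and 18 tags in wild type and 1, 1, 0 and 1 in knockout, which is 19.05 times more per tag in peaks in wild type (95% interval 6.22 to 94.9, counting error only; edgeR adjusted p = 0.00083). Its neighbour within 2 Mb, a changed peak assigned to Copb1, went the other way and was higher in knockout.

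On chromosome 4, an intergenic MTEa peak 12.6 kb from Tnfrsf14, a receptor of the tumour necrosis factor receptor family (4:154915373-154915641), had 17.9, 17.6, 15.9 and 14.9 CPM in wild type and 2.41, 2.95, 4.83 and 4.53 in knockout (log2 -1.97, SE 0.28, edgeR adjusted p = 0.00041). The spread within each genotype was small beside the gap between them. An ORR1E peak in an intron 37.2 kb away, assigned to Gm13112 (4:154877926-154878198), had 22.4, 26.7, 28.5 and 26.1 CPM against 16.9, 11.8, 11.0 and 12.9 (log2 -1.01, SE 0.21, edgeR adjusted p = 0.032). It did not overlap between genotypes but lost the call under 8 of 15 alternatives, among them the omission of wild-type replicate 2, 3 or 4 or knockout replicate 2, 3 or 4 (edgeR adjusted p from 0.053 to 0.30).

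The other 3 called peaks were ERVK members. An intergenic RMER6B peak 14.7 kb from Ube2f, a NEDD8-conjugating enzyme gene (1:91235465-91235740), had 19.9, 10.5, 14.8 and 17.2 CPM in wild type and 3.62, 1.48, 6.59 and 4.85 in knockout (log2 -1.70, SE 0.31, edgeR adjusted p = 0.0081). An intergenic RLTR12BD_Mm peak 7.07 kb from Thoc3, a member of the THO complex of mRNA export (13:54475762-54476057), had 29.3, 25.3, 25.04 and 23.3 CPM against 19.3, 7.38, 9.66 and 10.4 (log2 -1.21, SE 0.23, edgeR adjusted p = 0.015). Knockout replicate 1 was the highest knockout library there and still below every wild-type library. The RLTR44A peak in an intron, 66.3 kb from the start of the kinase gene Map3k4 (17:12252195-12252572), had 32.8, 8.43, 19.9 and 30.3 CPM against 4.83, 10.3, 9.22 and 8.41. It is the only called peak whose genotypes overlapped, since wild-type replicate 2 was as low as knockout (log2 -1.49, SE 0.31, edgeR adjusted p = 0.036). It lost the call under 9 of 15 alternatives, among them the omission of replicate 1, 3 or 4 of either genotype (edgeR adjusted p from 0.069 to 0.21). The Thoc3 peak lost it under 6 of 15, among them the omission of wild-type replicate 1 or 3 or knockout replicate 3 or 4 (0.052 to 0.16), and the Ube2f peak without wild-type replicate 1 (0.058).

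**Figure D5:**
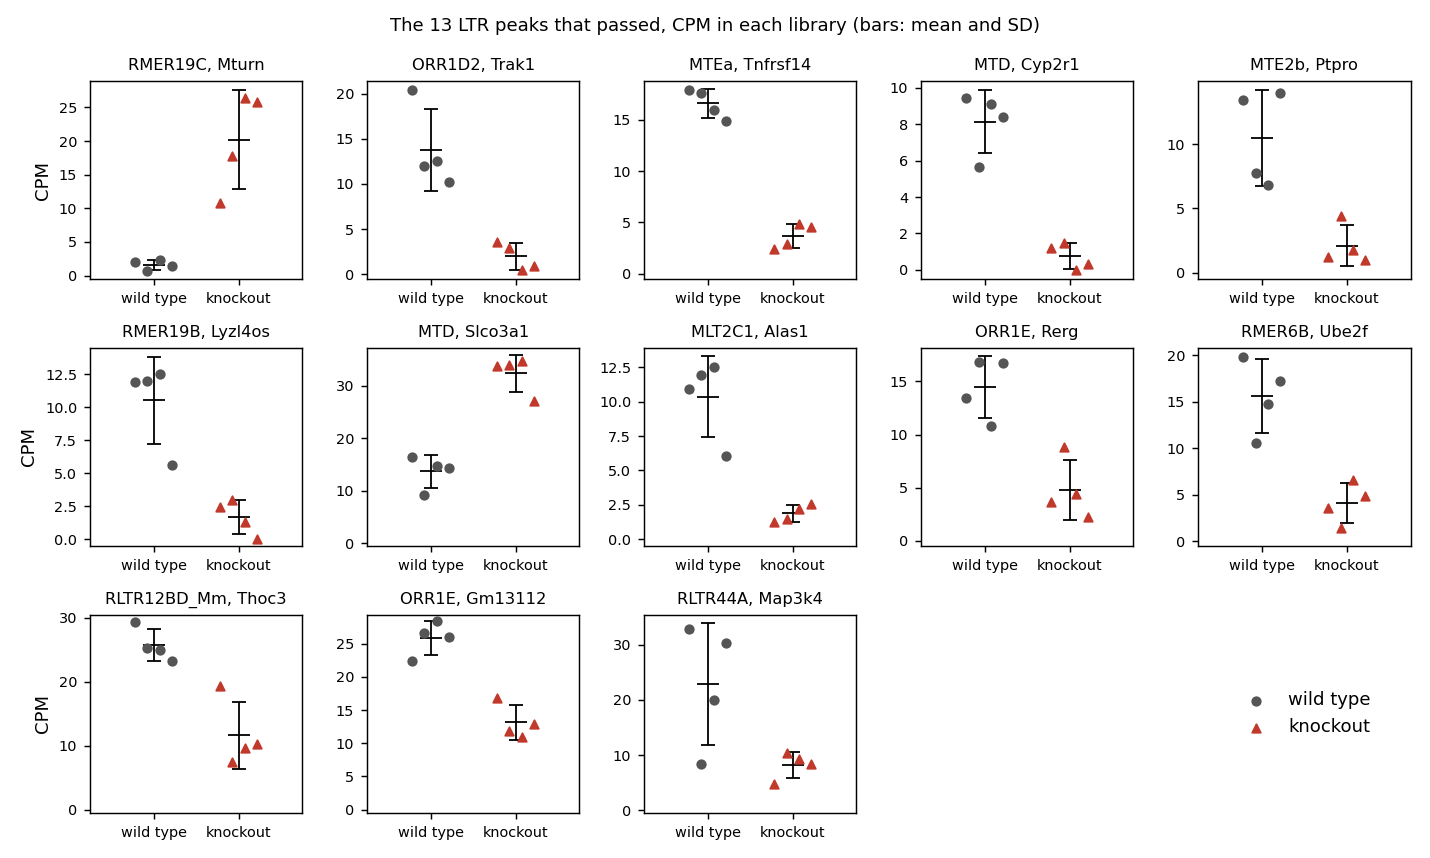
CPM of the 13 LTR peaks that passed (y axis, linear), by genotype, titled with the repeat name and the assigned gene, with 1 point per library and bars for the mean and SD of 4 libraries. In 12 panels no knockout library overlaps a wild-type library, and at Map3k4 wild-type replicate 2 (8.43 CPM) lies among the knockout libraries.

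Called LTR peaks lay in introns (7) or between genes (6), and 6 were in the wild-type list only, 1 in the knockout list only and 6 in both. Of the 13, 10 had another changed peak of any class within 2 Mb (76.9%), against 82 of all 99 changed peaks (82.8%). The 3 without one were those at Ube2f, Slco3a1 and Map3k4. When all tags in place of tags in peaks set the scale, 4 LTR peaks passed, those at Mturn, Trak1, Cyp2r1 and Lyzl4os, and the directions of all 13 were the same. Under that scaling 19 of all tested peaks passed.

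The LTR peaks next in rank, which did not pass, are given as values. On the higher side, an RLTR11A2 peak 8.00 kb from Dusp1, a phosphatase gene that is induced by stress (17:26500272-26500664), had 13.4, 11.9, 6.83 and 12.1 CPM in wild type and 31.4, 20.7, 32.9 and 15.5 in knockout (log2 1.14, SE 0.26, edgeR adjusted p = 0.096). It borders a changed peak outside LTR elements, 0.010 kb away. An LTR78B peak 79.6 kb from the collagen gene Col6a3 (1:90764211-90764447) had 2.98, 3.51, 3.42 and 4.66 CPM against 8.45, 11.8, 10.5 and 9.06 (log2 1.40, adjusted p = 0.11), and an MLT1E1A peak 49.9 kb from Spp2 had 6.06 ± 1.39 against 14.1 ± 2.23 CPM (log2 1.11, adjusted p = 0.18). The genotypes did not overlap at these 3. They overlapped at an MLTR11B peak near Adam23 (log2 1.41, adjusted p = 0.23), where knockout replicate 3 had 39.96 CPM and the other knockout libraries 5.91 to 18.1, and at an MTEa peak near Fam71a (log2 0.67, adjusted p = 0.27). Without knockout replicate 4 the peaks near Dusp1, Adam23 and Fam71a passed (adjusted p = 0.0048, 0.014 and 0.020), and without knockout replicate 2 the Adam23 peak did (0.042). Without knockout replicate 3 their log2 fold changes were 0.88, 0.62 and 0.59 (adjusted p = 0.92, 1.00 and 1.00).

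On the lower side, an MTEb peak in an intron, assigned to the TGF-beta receptor gene Tgfbr2 at 116 kb (9:116059115-116059398), had 22.5 ± 2.02 CPM in wild type and 11.3 ± 4.90 in knockout (log2 -0.97, adjusted p = 0.14). An MLT1D peak in an intron 35.7 kb from the start of Chn2, a Rac GTPase-activating protein gene (6:54075560-54075787), had 35.4 ± 4.19 and 22.4 ± 5.18 CPM (log2 -0.77, adjusted p = 0.18). An internal MurERV4 segment 24.1 kb from Ly6e, a membrane protein gene of the interferon response (15:74930834-74931094), had 17.8 ± 4.81 and 8.88 ± 1.09 CPM (log2 -0.98, adjusted p = 0.20). The genotypes did not overlap at these 3 peaks. An RLTR44B peak near Lao1 (log2 -1.30, adjusted p = 0.20, and 0.044 without wild-type replicate 4) overlapped between genotypes, and an MER73 peak at Gm11747 (log2 -0.70, adjusted p = 0.28) did not. All these p-values are from edgeR.

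Tags were also summed over all LTR peaks of a repeat name, which tests the net change of an element. A single copy can carry such a sum, so it does not show whether the copies moved together. Of 348 LTR names tested, 0 passed in edgeR (lowest adjusted p = 0.064, for LTR78B, a name with 1 peak named here for this value) and 0 in DESeq2. At an unadjusted edgeR p below 0.05 there were 21 names (6.03%, against 5.59% of all 680 sums tested), 13 higher and 8 lower. MTD, the name with the most peaks, summed to 4354 ± 233 CPM in wild type and 4476 ± 120 in knockout (log2 0.040, SE 0.049), and ORR1E to 3749 ± 173 and 3818 ± 126 CPM (log2 0.026, SE 0.049). The sums of ORR1D2, ORR1F, MTC, MTE2b and MTEb had log2 fold changes of 0.033, 0.058, 0.028, 0.027 and 0.098, and that of MTEa 0.12 (SE 0.065). ORR1B1, with 82 peaks, summed to 909 ± 70.7 and 1006 ± 31.5 CPM (log2 0.15, SE 0.063, adjusted p = 0.84), and RMER19B, with 65, to 845 ± 54.1 and 853 ± 47.8 CPM (log2 0.013, SE 0.064).

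Among names of at least 5 peaks the smallest p-values on the higher side were those of RLTR11A2, MER54A and RMER17B. RLTR11A2, with 10 peaks that include the one near Dusp1, had 88.5, 93.5, 83.1 and 77.3 CPM in wild type and 117, 117, 122 and 97.0 in knockout (log2 0.39, SE 0.10, adjusted p = 0.33). MER54A, with 6 peaks, had 136 ± 5.41 and 163 ± 11.8 CPM (log2 0.25, SE 0.077, adjusted p = 0.52). RMER17B, with 5, had 45.5 ± 6.57 and 58.7 ± 4.75 CPM (log2 0.37, adjusted p = 0.60). The genotypes did not overlap for RLTR11A2 and MER54A. On the lower side, RMER6B (log2 -0.18), RLTR14 (log2 -0.16) and MLT1J1 (log2 -0.12) each had an adjusted p of 0.84. All are edgeR values.

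A gene was assigned an LTR peak in 2630 cases, with 1 peak for 1972 genes and 5 or more for 25 genes. Frmd4a, a scaffold protein gene, had the most, 8 of its 64 peaks, in MTD, MTEa, MTEb, MuRRS4-int, ORR1E, ORR1F and RMER10A elements. Rreb1, a zinc finger transcription factor gene, had 7 of 48, and Runx1, a transcription factor of haematopoietic cells and microglia, 6 of 61. Plcl2, Tnks, Tpd52, Zmynd8 and 4921525O09Rik also had 6. No LTR peak of these 8 genes was called.

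Genes that silence endogenous retroviruses, sense their nucleic acids or answer interferon were read from 4 lists, with the tags of all peaks assigned to a gene summed. Of 38 tested genes of the silencing list 1 passed (edgeR, against 0.22% of all 15476 tested genes), and at an unadjusted p below 0.05 there were 2 higher and 1 lower (5.85% of all tested genes had such a p). The gene that passed was Zfp932, a KRAB zinc finger protein that represses endogenous retroviruses, with 1 peak at 0, 4.92, 0 and 0 CPM in wild type and 7.24, 8.86, 8.78 and 15.2 CPM in knockout (edgeR adjusted p = 0.014). All knockout libraries stood above wild type, 3 of whose libraries held no tag. Zfp932 has near-identical relatives among zinc finger genes, between which reads can be split, so its value is uncertain, and the call was lost under 5 of 14 alternatives, among them the omission of wild-type replicate 1, 3 or 4 or knockout replicate 4 (edgeR adjusted p from 0.063 to 0.098), with no adjusted p given by DESeq2. Kdm1a, a histone demethylase, had 19.98 ± 4.401 CPM in wild type and 11.0 ± 2.41 in knockout (log2 -0.76) and did not pass (edgeR adjusted p = 0.47).

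No gene passed in edgeR among 20 tested nucleic acid sensors, 25 interferon response genes and 33 homeostatic microglia genes, where 0, 0 and 8 had an unadjusted p below 0.05 (against the 5.85% of all tested genes), and DESeq2 called 0 in all 4 lists. The median log2 fold change was -0.0057 for the silencing list, -0.015 for the sensors, 0.0043 for the interferon response and 0.056 for the homeostatic genes, against -0.012 for all genes. Zbp1, a sensor of left-handed nucleic acid, summed to 161 ± 19.4 CPM in wild type and 195 ± 35.0 in knockout, and Mavs, the adaptor of the RNA sensors, to 112 ± 4.18 and 96.3 ± 9.68. Slfn5 had 37.6 ± 2.36 and 43.2 ± 4.06, and Irf8, a transcription factor of microglia, 421 ± 23.7 and 449 ± 24.4. Of the 8 homeostatic genes 7 were higher, led by the growth factor receptor gene Csf1r (260 ± 13.6 and 307 ± 19.6 CPM, edgeR adjusted p = 0.36) and Tmem119 (155 ± 10.1 and 183 ± 15.9 CPM, edgeR adjusted p = 0.67).

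Of the 46 tested LTR peaks assigned to these list genes, 0 passed in edgeR. An unadjusted edgeR p below 0.05 was found for 3, all at homeostatic genes (against 4.83% of all tested peaks). Listed LTR peaks of these genes numbered 7, 12, 5 and 31 in the order silencing, sensors, interferon and homeostatic. The strongest was an MTD peak 1.87 kb from Slc2a5, the fructose transporter gene of microglia (4:150117334-150117622), with 63.6, 48.5, 49.5 and 53.6 CPM in wild type and 65.2, 23.6, 34.7 and 34.6 in knockout (log2 -0.49, SE 0.19, edgeR adjusted p = 0.93). Knockout replicate 1 was the highest of all 8 libraries there and the other knockout libraries the lowest. An MLT1L peak 41.4 kb from Runx1 had 44.0 ± 3.07 and 41.9 ± 2.70 CPM, and an LTR33A peak 19.2 kb from Tyrobp, the signalling adaptor of TREM2, 47.3 ± 3.70 and 41.9 ± 18.1 CPM.

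Among LTR peaks of the sensors, an MTD at Tbk1, the kinase of interferon induction, had 38.0 ± 4.50 CPM in wild type and 33.9 ± 7.70 in knockout, an ORR1F at Aim2, the DNA sensor of an inflammasome, 25.3 ± 4.74 and 24.1 ± 5.28, and an MER57E2 at Ddx58, the RNA sensor RIG-I, 16.8 ± 3.72 and 15.7 ± 3.25. At interferon response genes, RLTR11A at Slfn2 had 16.04 ± 2.92 and 16.6 ± 3.61, LTR84b at Parp14 13.6 ± 3.02 and 14.4 ± 2.48, and MLT1D at Irf8 12.1 ± 2.47 and 9.96 ± 3.47 CPM. At silencing genes, RLTR49 at Morc3 had 13.5 ± 1.85 and 15.2 ± 2.75, and MERVL_2A-int in an intron at Ehmt1 8.32 ± 2.61 and 8.13 ± 0.63 CPM. The genotypes overlapped at all 8 of these peaks.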

How the data were processed

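Tags were measured by ATAC-seq in 8 libraries, 4 per genotype. The authors deposited raw tag counts per peak, made per the file headers with HOMER's annotation tool (sizes as given, at most 3 tags per position, no depth adjustment) over the merged reproducible peak lists of both genotypes; Bowtie2, HOMER and DESeq2 are named in the submitters' processing notes with the build mm10. Whether Tn5 cut sites were shifted, and how reads with several matches were placed, is not given in the sources used here. Libraries were selected for fragments of 165 to 250 bp, per the labels' protocols. A deposited normalised table was not used.

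Tags of all listed peaks were tested with edgeR 4.0.16 (quasi-likelihood F test, TMM scaling, filterByExpr with a minimum count of 10) in R 4.3.3, with Benjamini-Hochberg adjustment over all tested peaks and a threshold of 0.05. The same test ran on tags summed per repeat name and per assigned gene. DESeq2 1.42.0, other scalings, no filter, leaving out libraries and a replicate block were alternatives. Shares of tags were compared by exact permutation tests. CPM uses TMM-scaled tags in peaks. Intervals of tag ratios cover counting error only.

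The members and lists were chosen with earlier results of these data known. Named peaks are those that passed, 5 more per direction that did not pass, taken by smallest p, the 8 strongest in wild type (1 per repeat name, at least 20 tags in every wild-type library) and the 3 strongest at each gene list, 1 of which is not reported here. Named repeat names are the 10 with the most peaks and, in each direction, the 3 of at least 5 peaks with the smallest p; each list names its passed gene and its 2 smallest p. No genome of the build was at hand, so the planned motif search around all peak centres was replaced by one in promoter windows.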

Additional observations from a re-analysis of the deposited data

Results flagged for a closer look

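Of 144 sets of 4 libraries tested with Dixon's criterion, at its 95% critical value,, 4 (2.78%) had a library apart from the other 3; chance gives about 1 in 20. At the RMER19B peak of Lyzl4os, wild-type replicate 4 had 5.59 CPM against 11.9 to 12.5 CPM in the other wild-type libraries. At the MTD peak near Slco3a1, knockout replicate 4 had 27.2 CPM against 33.8 to 34.7 CPM. At the RLTR11A peak of Slfn2, wild-type replicate 1 had 20.4 CPM against 14.1 to 14.9 CPM. In the peak of Zfp932, wild-type replicate 2 had 4.92 CPM against 0 in the others.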

How the results depend on the processing

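Of 850 recomputed values, 769 kept their direction and side of the threshold, or for counts stayed within 1.5 times. For the shares, values with libraries left out or with the replicate block could not pass. Only their direction could change, so part of this count was fixed in advance. With 13 LTR peaks called at first, 4 were called when all tags set the scale and 26 (7 higher, 19 lower) when knockout replicates 1 and 2 were left out together; all 13 were among the 26. Leaving out 1 library gave 8 to 14 calls, with 8 without wild-type replicate 1 and 9 without wild-type replicate 3 or knockout replicate 3. Without knockout replicate 4, 14 were called, 7 in each direction, 9 of them among the first 13. DESeq2 called 11, 10 of them shared. Robust moderation, added after the data were seen, called 13, 12 of them shared. No LTR repeat name passed under 14 of the 15 alternatives, and 5 passed without knockout replicates 1 and 2. The count of list genes called, 1, became 0 with DESeq2 (no adjusted p given) and with robust moderation, and lay between 0 and 1 without 1 library.

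With 1 library out the exact test of a share cannot go below 0.057, so no such result can pass. The LTR share difference then ranged from 0.036 to 0.20 points, and without wild-type replicate 1 it was 0.20 points, and 0.14 for ERVL-MaLR, both at that smallest p. For ERVL the difference turned to -0.0075 points, and for ERV1 to -0.0044, with tags outside promoters as the denominator; without 1 library they ranged from -0.0010 to 0.018 and from -0.00097 to 0.0073. Summed tags changed sign at values near 0 on the log2 scale: MTD (-0.00074), ORR1D2 (-0.00070), MTE2b (-0.013) and RMER19B (-0.018) without wild-type replicate 3, RMER19B also without wild-type replicate 4 (-0.014) and knockout replicate 2 (-0.018), ORR1E without knockout replicate 3 (-0.0014), MTC without knockout replicates 1 and 2 (-0.00037) and MLT1J1 with all tags as scale (0.013). Over all libraries left out in turn, the highest values of these names were 0.060 for MTD, 0.057 for ORR1E, 0.064 for ORR1D2, 0.046 for MTE2b and 0.057 for RMER19B. The cause was not tested. Adding LTR peaks annotated to promoters could change nothing, since the annotation holds none, so it is no check of the results.

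Replicate numbers were not taken to pair the libraries, since not every same-numbered pair had a correlation of deviations above 0.1. The same-numbered correlations were -0.0071, 0.091, -0.0038 and 0.14. Those of different-numbered libraries ran from -0.12 to 0.084, so 0.091 and 0.14 were above all of them. Whether the numbers stand for real pairs was not tested. With the replicate block 16 LTR peaks (5 higher, 11 lower) and 140 of all tested peaks passed, against 99 without it, with 0 repeat names and 1 list gene. Share differences under the replicate block had exact sign-flip p of 0.63 for the LTR share and 0.63 to 0.88 for the families; the smallest possible is 0.125. Depth limits what can be seen: the median LTR peak held 6 and 7 tags in knockout replicates 2 and 1.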

Other observations

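Gypsy elements, a separate group of LTR retrotransposons of which mammalian genomes keep old remnants, had 14 peaks. They were stronger in wild type than the endogenous retrovirus families, with a median of 48.8 ± 2.92 CPM per kb in wild type and 39.8 ± 5.83 in knockout (SD, n = 4 each). Of the 14, 12 were in both genotypes' lists, 13 were intergenic, and 42.9% lay within 10 kb of a gene start, against 27.6% of all LTR peaks. The median log2 fold change of the 13 tested was -0.22, and 0 were called in edgeR, with 0 at an unadjusted p below 0.05. The libraries' medians ran from 44.9 to 51.4 CPM per kb in wild type and from 32.3 to 44.8 in knockout, without overlap; knockout replicates 1 and 2 were lowest (38.2 and 32.3). The 4 peaks annotated Gypsy? did not share the pattern. They had 34.4 ± 8.27 CPM per kb in wild type and 36.9 ± 9.72 in knockout, with overlap. Their median log2 fold change was 0.047, and 0% lay within 10 kb of a gene start. These 14 and 4 peaks are few, and the pattern was noticed after the values were seen and not tested.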
